A study of Mus musculus with 10 samples.

Results

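The 9 genes described here are used in the gut as readouts of repair. Ly6a, Anxa1, Clu, Msln and S100a6 mark the fetal-like state that injured intestinal epithelium takes on, Yap1 and Wwtr1 encode the transcriptional coactivators YAP and TAZ, and Ctgf and Cyr61 are the targets most often read as a measure of YAP and TAZ activity. They were taken by name, with earlier results of these data known, from a table of 16875 gene names, and all 9 were in it. Between colon tumors that lacked epithelial Wntless and control tumors, 1 of the 9 passed the test: the entry that carries the name Ly6a was 3.39 times as high in the tumors without Wntless. Neither YAP nor TAZ nor either of their 2 targets passed.

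The tumors came from C57Bl6 mice, aged 6 to 10 weeks at the start, that were given azoxymethane (AOM), a colon carcinogen, and then 3 cycles of 2% dextran sulfate sodium (DSS), which injures the colon lining. Tumors were collected 120 days after AOM, 5 from control mice (Wls flox/flox) and 5 from Villin-Wls cKO mice (Villin-Cre ERT2, Wls flox/flox), so both groups carried the floxed Wls alleles and both had the same chemical treatment. In the second group 5 injections of tamoxifen, begun 30 days before collection, activated a Cre recombinase that the villin promoter drives in intestinal epithelium, tumor epithelium included, and not in the stroma. Wls encodes Wntless, without which Wnt proteins are not secreted, and the comparison asked what tumors express when their own epithelium can no longer release Wnts.

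The groups differed in more than genotype. Control tumors, unless marked otherwise by the study, had received no tamoxifen. Xist, an RNA made by the inactive X of female cells, had a level of 439 to 701 FPKM in the Villin-Wls cKO tumors and of 0.0366 to 0.420 FPKM in the control tumors. Genotype, sex and tamoxifen cannot be told apart in these 10 tumors. The number of mice is not given, so n counts tumors and the p-values rest on the spread between tumors. Tumors of a group that came from the same mouse would not be independent. In that case the p-values would be too small for a statement about mice.

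Levels are FPKM, fragments scaled to transcript length and to the mapped fragments of the tumor, so they are per length and can be compared between genes. Their sum was 1265992 to 1533885 in a control tumor and 1207683 to 1341494 in a Villin-Wls cKO tumor, the median gene lay between 11.3 and 12.2 FPKM, and read depth is unknown. Wls, the deleted gene, was at 61.3 to 79.9 FPKM in control tumors and at 2.81, 11.6, 11.7, 3.61 and 2.03 FPKM in Villin-Wls cKO tumors 1 to 5. Villin-Wls cKO tumors 2 and 3 stood apart from the other 3 also in keratin 5 (Krt5), a marker of stratified squamous epithelium, at 469.5 and 669 FPKM against at most 0.315 FPKM in the other 8 tumors. Values that change without this pair are given below. The epithelial markers Epcam, Cdh1, Krt8, Krt18, Krt19, Vil1, Cdx1 and Cdx2 were present in every tumor, with summed levels of 5405 to 7633 FPKM in control and 6423 to 8466 FPKM in Villin-Wls cKO tumors.

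As background, the Hippo pathway is a chain of kinases that keeps YAP and TAZ phosphorylated and out of the nucleus. When the chain is released, as it is after damage to the gut lining, YAP and TAZ enter the nucleus, bind DNA through TEAD factors and switch on genes for repair. During repair of the colon after DSS the crypts lose stem cell markers for a time and express genes of the fetal gut, Ly6a (Sca-1) and Anxa1 among them, before normal crypts return. Because YAP and TAZ are controlled mainly through the protein and its place in the cell, the RNA levels of Yap1 and Wwtr1 do not measure their activity.

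In control tumors the 9 genes spanned nearly 3 orders of magnitude on the FPKM scale. S100a6 was the highest, at a mean level of 10634 FPKM and rank 6 of all gene names by its control mean. The Ly6a entry followed at 603 FPKM, Anxa1 at 556 FPKM, Clu at 242 FPKM and Yap1 at 61.6 FPKM. Msln at 19.8 FPKM, Cyr61 at 19.6 FPKM, Ctgf at 13.2 FPKM and Wwtr1 at 12.8 FPKM closed the order. The tumors of the Ly6a entry and Anxa1 overlapped in level, and so did each neighbouring pair among the last 4 genes, so that these neighbours could not be ordered beyond the spread between tumors. Msln and Wwtr1, the first and the last of these 4, did not overlap.

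**Figure D1:**
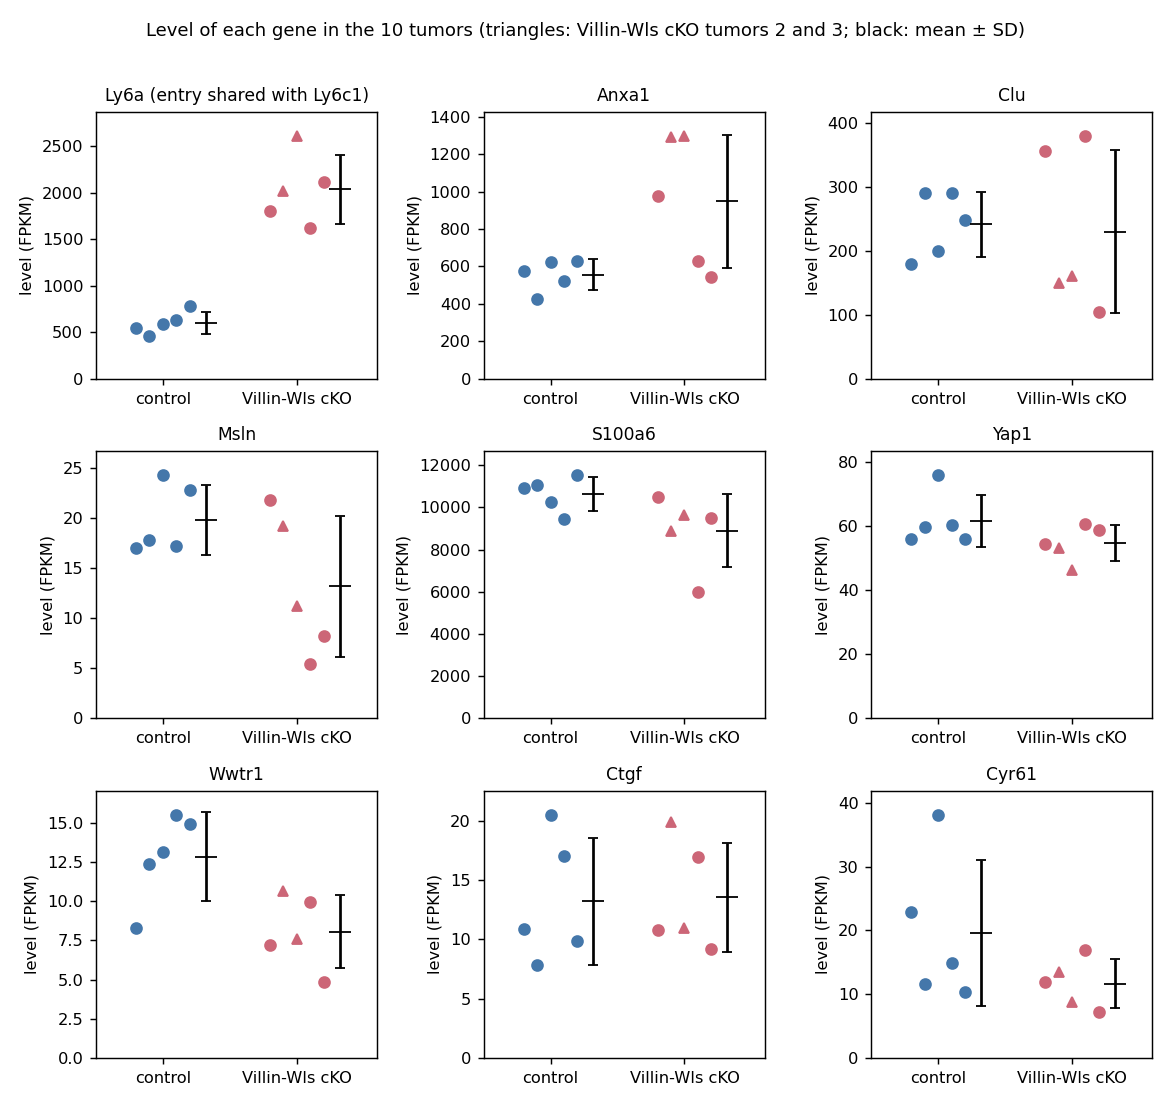
Level of each of the 9 genes in FPKM (vertical axes, starting at 0) in the 5 control tumors (blue) and the 5 Villin-Wls cKO tumors (red), in replicate order from left to right. Each point is 1 tumor, triangles are Villin-Wls cKO tumors 2 and 3, and black bars are the mean ± SD (n = 5). The groups are apart only for the Ly6a entry, at 460.3 to 785 FPKM against 1627 to 2614 FPKM.

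Ly6a encodes a small surface protein of the LY6 family, anchored in the membrane by a lipid, that marks blood stem cells, lymphocytes, endothelium and, in the gut, fetal and regenerating epithelium. Its entry was at 546, 460.3, 592, 629.7 and 785 FPKM in control tumors 1 to 5 and at 1804, 2024, 2614, 1627 and 2121 FPKM in Villin-Wls cKO tumors 1 to 5. Every Villin-Wls cKO tumor thus lay above every control tumor, and the lowest of them, tumor 4, was at more than double the highest control. The group means were 603 ± 120 FPKM in control and 2038 ± 375 FPKM in Villin-Wls cKO tumors (SD, n = 5 each). The log2 difference, Villin-Wls cKO minus control on the log2(FPKM + 1) scale, was 1.76 (standard error 0.16, 95% interval 1.40 to 2.12, limma adjusted p = 9.42e-05), a fold of 3.39 with an interval of 2.65 to 4.33. The relative spread between tumors was alike in both groups, with a coefficient of variation of 19.9% in control and 18.4% in Villin-Wls cKO tumors.

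The gene behind this entry cannot be named with certainty. In all 10 tumors the values listed for Ly6a are also those listed for Ly6c1, a neighbouring LY6 gene known as a marker of monocytes and endothelium, and for I830127L07Rik, a transcribed pseudogene. All 3 lie on the minus strand of mouse chromosome 15 (GRCm38), Ly6a from 74994877 to 74998031, Ly6c1 from 75044018 to 75048830 and the pseudogene from 75131377 to 75135128. The stretch that spans them holds 140252 bases and 8 annotated genes, 3 of them protein coding. The third coding gene, Ly6c2, had values of its own, at a mean of 2.06 FPKM in control and 3.44 FPKM in Villin-Wls cKO tumors. The sequences below show how alike the 2 coding genes of the shared entry are. They are the first 90 coding bases of both genes in GENCODE M21, 5′ to 3′, with capitals at the 4 places where they differ.
Ly6a: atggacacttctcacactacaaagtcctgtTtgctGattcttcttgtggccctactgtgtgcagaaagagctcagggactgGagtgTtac
Ly6c1: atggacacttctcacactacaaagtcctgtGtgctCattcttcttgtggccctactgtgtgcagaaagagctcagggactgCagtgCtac
Over the whole coding sequence, 405 bases in Ly6a and 396 in Ly6c1, 332 of 405 aligned columns were identical (82.0%), and the longest identical run was 48 bases. Because Ly6a, Ly6c1 and I830127L07Rik share all their values, the 3.39-fold difference belongs to the entry. Its split between these names was not resolved, and why they share values was not tested.

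Other genes of the LY6 family gave the entry a setting. Of 10 family members tested, 3 names rose and 0 fell, against 6.12% and 4.75% of all genes tested. Of these 3 names Ly6a and Ly6c1 are 1 entry, so that Ly6d was the only other. The median log2 difference of the 10 was 0.91, with 9 above 0 and 1 below. At an unadjusted limma p under 0.05, 5 were higher and 0 lower. Those beyond the 3 names were Ly6g (limma adjusted p = 0.139) and Ly6g6c (limma adjusted p = 0.171). Ly6d, which marks stratified epithelium and early B cells, was at 67.1, 52.5, 127, 173 and 276 FPKM in control and 305, 538, 602, 310.4 and 209.8 FPKM in Villin-Wls cKO tumors, highest in tumors 2 and 3, with a log2 difference of 1.64 (standard error 0.46, limma adjusted p = 0.045). Without that pair of tumors it was 1.21 (limma adjusted p = 0.198). Ly6e, a family member that many cell types make, was also abundant and differed little, 1556 ± 215 FPKM in control and 1614 ± 193 FPKM in Villin-Wls cKO tumors (SD, n = 5 each), a log2 difference of 0.06 (95% interval -0.21 to 0.33).

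Ly6a is known to be inducible by interferons, and interferon-inducible genes were also higher in the Villin-Wls cKO tumors. Of 14 such genes tested, on a list chosen with earlier results of these data known, 12 rose and 0 fell. The median log2 difference of the 14 was 3.01, against 0.01 over all genes tested. Their summed level was 118 to 210.4 FPKM in control and 829 to 1590 FPKM in Villin-Wls cKO tumors. From highest to lowest, the control tumors ran 1, 2, 4, 3, 5 in this sum and 5, 4, 3, 1, 2 in the Ly6a entry. The Villin-Wls cKO tumors ran 2, 3, 5, 1, 4 in the sum and 3, 5, 2, 1, 4 in the entry. Irf1, a transcription factor of the interferon response, rose from 48.8 ± 4.26 to 139 ± 17.5 FPKM (SD, n = 5 each). The T cell markers Cd3d, Cd3e, Cd3g and Cd8a, 4 of 6 on that list, rose as well, from a summed list level of 4.04 to 9.16 FPKM to one of 9.38 to 20.8 FPKM, whereas 0 of 7 endothelial markers passed limma (0 at an unadjusted p under 0.05), with overlapping sums of 21.0 to 52.8 and 20.8 to 55.5 FPKM. Of 5 macrophage markers 1, Cd14, rose, with list sums of 76.1 to 114.9 FPKM in control and 106.5 to 161 FPKM in Villin-Wls cKO tumors. Of 4 neutrophil markers tested 0 passed (3 higher at an unadjusted limma p under 0.05), and the sums of that list were 133 to 646 and 418 to 1069 FPKM. Without tumors 2 and 3, 10 of the 14 interferon-inducible genes and 0 of the 5 T cell markers still tested passed, as did 0 of the 5 macrophage markers. The part of interferon or of these cells in the Ly6a difference was not tested, and in whole tumor pieces more cells of a type and more RNA per cell cannot be told apart.

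Among all 16757 genes tested, 10.9% passed in either direction, 6.12% as higher and 4.75% as lower in the Villin-Wls cKO tumors. With 1 of 9 members past the threshold, the share of the members was near that of all genes and is no result about them as a set. Tumors of one group all lay above those of the other for 1 of the 9, the Ly6a entry, and for 10.1% of all genes. Of the log2 differences of the members, 3 were above 0 and 6 below, with a median of -0.23, against 0.01 over all genes tested. At an unadjusted limma p under 0.05 there were 2 higher, the Ly6a entry and Anxa1, and 1 lower, Wwtr1, against 2321 higher and 1987 lower of all genes.

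**Figure D2:**
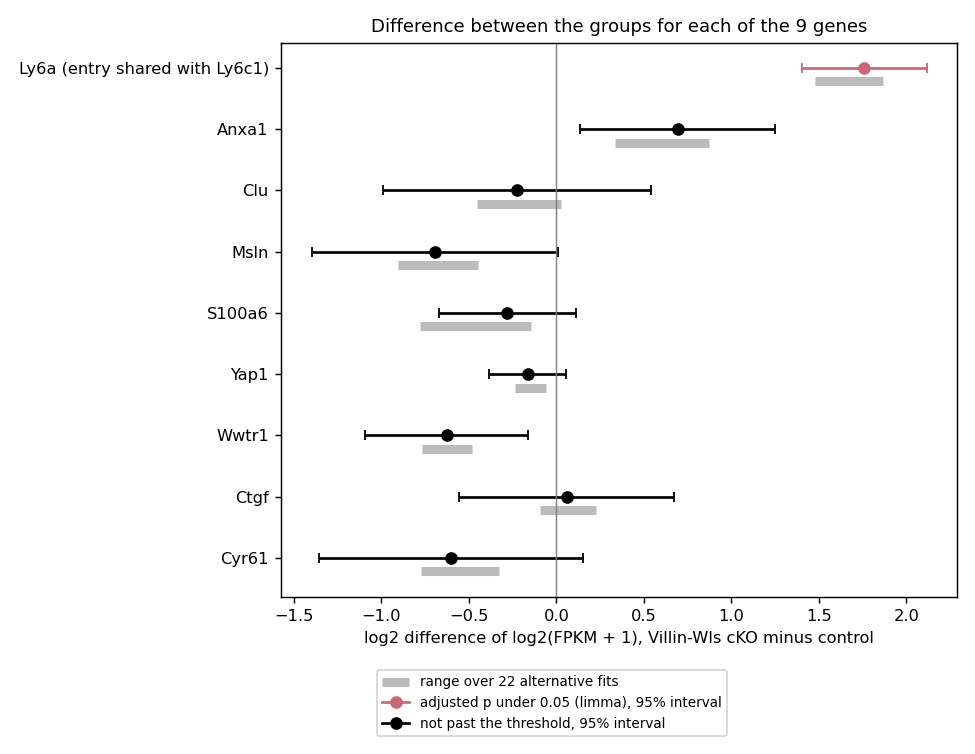
Log2 difference of each of the 9 genes, Villin-Wls cKO minus control on the log2(FPKM + 1) scale (horizontal axis), with its 95% interval from limma (n = 5 tumors a group). Red marks an adjusted p under 0.05 and grey bars give the range over 22 alternative fits. The interval of the Ly6a entry runs from 1.40 to 2.12, those of Anxa1 and Wwtr1 leave out 0 but miss the threshold after adjustment, and the other 6 hold 0.

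Anxa1, which encodes annexin A1, a calcium-dependent membrane-binding protein that helps to end inflammation and close wounds, was the other fetal-like gene with a difference above 0. It was at 577, 428, 622, 520.5 and 631 FPKM in control tumors 1 to 5 and at 975, 1292, 1297, 629 and 543 FPKM in Villin-Wls cKO tumors 1 to 5. Tumors 1, 2 and 3 lay above every control, and tumors 4 and 5 lay inside the control range. The means were 556 ± 83.6 and 947 ± 356 FPKM (SD, n = 5 each) with a log2 difference of 0.69 (standard error 0.25, 95% interval 0.14 to 1.25, limma adjusted p = 0.11), which did not pass. It passed in 1 of 22 alternative fits, the one without Villin-Wls cKO tumor 5 (log2 difference 0.87, limma adjusted p = 0.0407). The difference was 0.33 (limma adjusted p = 0.377) without tumors 2 and 3, the pair with squamous keratin. Summed stratified squamous markers were at 1700 and 2061 FPKM in that pair and at 209 to 486 FPKM in the other 8 tumors. Their part in the level of Anxa1, which squamous epithelium also makes, was not tested.

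Clu encodes clusterin, a secreted chaperone that marks the revival stem cells of damaged gut. Its levels were 179.9, 291, 199.9, 291 and 249 FPKM in control tumors and 356, 150.4, 162, 380.5 and 104 FPKM in Villin-Wls cKO tumors 1 to 5. The second group was split, with tumors 1 and 4 above all controls and tumors 2, 3 and 5 below all of them. The means, 242 ± 51.2 and 231 ± 128 FPKM (SD, n = 5 each), did not show this split, and the log2 difference of -0.23 (standard error 0.35, 95% interval -0.99 to 0.54, limma adjusted p = 0.741) did not pass. The coefficient of variation was 21.1% in control and 55.4% in Villin-Wls cKO tumors.

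Msln encodes mesothelin, a surface glycoprotein of mesothelium and of several carcinomas. It was at 17.0, 17.8, 24.3, 17.2 and 22.8 FPKM in control tumors and at 21.8, 19.2, 11.2, 5.46 and 8.24 FPKM in Villin-Wls cKO tumors 1 to 5. Tumors 3, 4 and 5 lay below every control while tumors 1 and 2 lay among them, and the log2 difference was -0.69 (standard error 0.32, 95% interval -1.40 to 0.01, limma adjusted p = 0.201). None of the 6 mesothelial markers sought (Upk3b, Upk1b, Lrrn4, Wt1, Gpm6a and Bnc1) was among the gene names analysed here, so the share of mesothelium was not measured.

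S100a6 encodes calcyclin, a small calcium-binding protein. It was at 10914, 11049, 10251, 9434 and 11522 FPKM in control tumors and at 10479.7, 8903, 9626, 5979.6 and 9506 FPKM in Villin-Wls cKO tumors. All but tumors 2 and 4 lay within the control range, and both of these lay below it. Its log2 difference was -0.28 (standard error 0.18, 95% interval -0.67 to 0.11, limma adjusted p = 0.361), and -0.14 (limma adjusted p = 0.616) without Villin-Wls cKO tumor 4. For a gene this abundant the scaling mattered, and under quantile normalization the difference was -0.78 (limma adjusted p = 0.0029).

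Of the 22 other fetal-like and regeneration genes tested, 4 rose and 1 fell, with a median log2 difference of 0.40, 18 above 0 and 4 below. Over all genes tested, 6.12% rose and 4.75% fell. At an unadjusted limma p under 0.05, 12 of the 22 were higher and 1 lower, against 2321 and 1987 of all 16757 genes. The counts past the threshold were 6 and 1 with a common FPKM sum for all tumors and 2 and 1 under quantile normalization. The genes that rose were Areg, a growth factor that activates the EGF receptor (21.1 ± 9.09 to 43.4 ± 10.7 FPKM), Sprr1a, a small proline-rich protein of squamous and stressed epithelium (52.4 ± 36.0 to 129 ± 17.9 FPKM), S100a10, the partner of annexin A2 (759.9 ± 96.5 to 1091 ± 133 FPKM), and S100a11 (1166 ± 142 to 1755 ± 259 FPKM; SD, n = 5 each). Without tumors 2 and 3, 0 of the 22 passed as higher, with limma adjusted p of 0.148 for Areg, 0.128 for Sprr1a, 0.0857 for S100a10 and 0.0851 for S100a11. That fit held fewer tumors. The log2 differences of these genes, in the same order, were 0.86, 1.41, 0.47 and 0.46 in it. With all tumors they were 1.06, 1.52, 0.52 and 0.59. The gene that fell was Hmga2, a chromatin protein of fetal tissues, from 13.7 ± 3.70 to 4.91 ± 2.68 FPKM (SD, n = 5 each), a log2 difference of -1.44 (limma adjusted p = 0.0288). It passed also without tumors 2 and 3 (limma adjusted p = 0.0384) and in 18 of 22 alternative fits.

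The families of Anxa1 and S100a6 were read in the same way. Of 12 annexins tested, Anxa1 included, 0 rose and 0 fell by limma (6 and 0 at an unadjusted p under 0.05), with a median log2 difference of 0.26 and 11 of 12 above 0. With a common FPKM sum for all tumors, 2 rose. Anxa2, the most abundant annexin, was at 1783 ± 239 FPKM in control and 2299 ± 363 FPKM in Villin-Wls cKO tumors (SD, n = 5 each), a log2 difference of 0.36 (limma adjusted p = 0.123). Of 11 S100A genes tested, 3 rose (S100a10, S100a11 and S100a13) and 0 fell by limma (6 and 0 at an unadjusted p under 0.05). The names S100a3 and S100a4 share all their values, and S100a10 and S100a11 are also among the fetal-like genes above. S100a6, the most abundant, had the lowest difference of the 11. Without tumors 2 and 3, 0 of the 11 passed, and under quantile normalization 1 rose and 1, S100a6, fell.

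**Figure D3:**
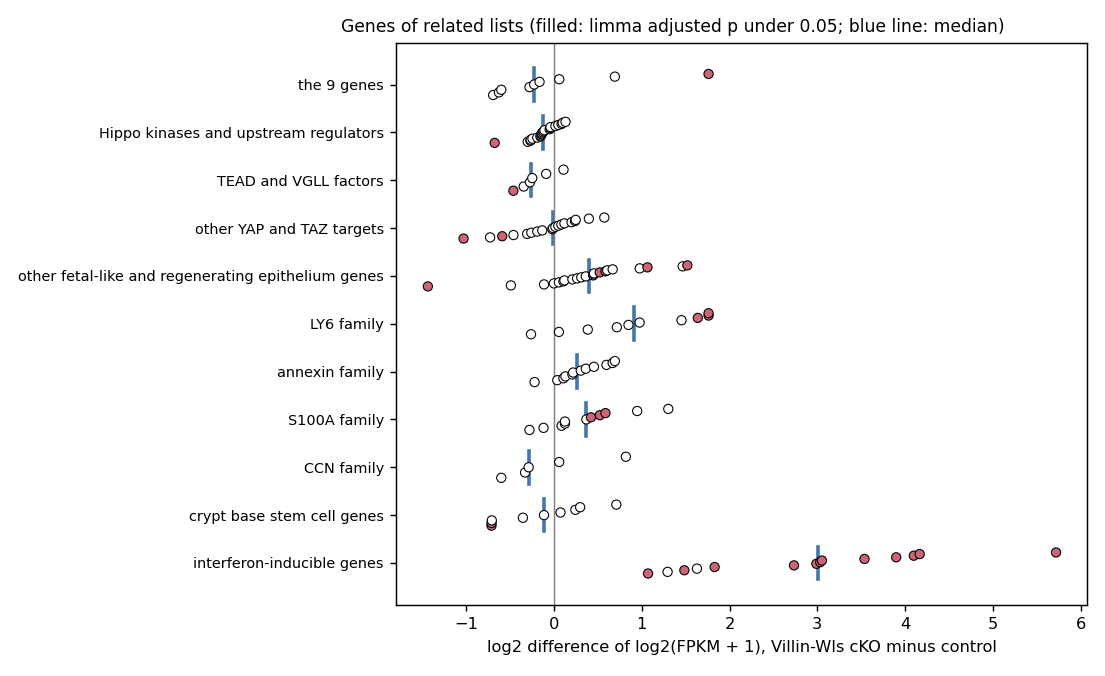
Log2 differences, Villin-Wls cKO minus control on the log2(FPKM + 1) scale (horizontal axis), of the genes of 10 related lists and of the 9 genes, with 1 point a gene. Filled points passed limma at an adjusted p under 0.05 and blue lines are medians, 0.40 for the other fetal-like genes, -0.13 for the Hippo kinases and their regulators and 3.01 for the interferon-inducible genes.

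Yap1, which encodes YAP, was the steadiest of the 9 genes among the Villin-Wls cKO tumors. It was at 56.1, 59.8, 75.8, 60.2 and 56.0 FPKM in control tumors and at 54.4, 53.2, 46.4, 60.6 and 58.9 FPKM in Villin-Wls cKO tumors. The groups overlapped, with control tumor 3 above all others and Villin-Wls cKO tumors 1, 2 and 3 below every control. Its log2 difference was -0.16 (standard error 0.10, 95% interval -0.39 to 0.06, limma adjusted p = 0.34). The interval of the fold, 0.765 to 1.04, leaves out a change of the size seen for the Ly6a entry.

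Wwtr1, which encodes TAZ, the other of the coactivators, was lower in most Villin-Wls cKO tumors. It was at 8.27, 12.4, 13.1, 15.5 and 14.9 FPKM in control tumors 1 to 5 and at 7.20, 10.7, 7.59, 9.92 and 4.84 FPKM in Villin-Wls cKO tumors 1 to 5. Control tumors 2 to 5 lay above every Villin-Wls cKO tumor, and control tumor 1 lay among them. The means were 12.8 ± 2.86 and 8.04 ± 2.32 FPKM (SD, n = 5 each). The log2 difference of -0.63 (standard error 0.21, 95% interval -1.09 to -0.16, limma adjusted p = 0.0865) did not pass, and it passed when control tumor 1 was left out (-0.76, limma adjusted p = 0.0385).

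Ctgf and Cyr61, also named Ccn2 and Ccn1, encode secreted matrix proteins of the CCN family and are direct targets of YAP, TAZ and TEAD in many cell types, stromal cells included. Ctgf was at 10.9, 7.81, 20.5, 17.1 and 9.82 FPKM in control tumors and at 10.8, 19.9, 10.96, 17.0 and 9.21 FPKM in Villin-Wls cKO tumors. The second range lay inside the first, and the log2 difference was 0.06 (standard error 0.28, 95% interval -0.55 to 0.67, limma adjusted p = 0.925). Cyr61 was at 22.8, 11.7, 38.1, 14.9 and 10.4 FPKM in control tumors and at 11.9, 13.4, 8.83, 16.9 and 7.16 FPKM in Villin-Wls cKO tumors. Control tumors 1 and 3 were above all Villin-Wls cKO tumors, and the log2 difference of -0.60 (standard error 0.34, 95% interval -1.35 to 0.15, limma adjusted p = 0.302) did not pass. Without control tumor 3 it was -0.33 (limma adjusted p = 0.488). The coefficient of variation of Cyr61 was 58.4% in control tumors, the largest of the 9 genes there, so that only a large change could have been detected. Control tumor 3, highest for both genes, also had the highest sums of fibroblast (1025 FPKM) and endothelial markers (52.8 FPKM) among the controls, and the part of stroma in these levels was not tested.

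The promoters of these genes were read for the TEAD motif, through which YAP and TAZ reach DNA. RefSeq promoter sequences (GRCm38.p6) were matched for 5 of the 9 genes, Anxa1, Cyr61, S100a6, Wwtr1 and Yap1. The letters GGAATG, on either strand, occurred in the 250 bases before the start of 4 of these 5 and in 12.6% of 32851 promoters of the same length. The matches are shown 5′ to 3′ on the strand of the gene with 12 bases on each side, the motif in capitals and CATTCC where it lies on the other strand.
Cyr61: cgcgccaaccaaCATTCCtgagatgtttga
Yap1: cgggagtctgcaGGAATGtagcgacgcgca
Wwtr1: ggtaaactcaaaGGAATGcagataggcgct
Anxa1: actgcactgaacCATTCCtgtgaggaataa
All 4 genes lie on the minus strand. The Cyr61 window is chr3:145650071-145650100, with the first base of the match 103 bases before the start, and the Yap1 window is chr9:8004720-8004749, 141 bases before. The Wwtr1 window is chr3:57576029-57576058, 136 or 170 bases before its 2 annotated starts, and the Anxa1 window is chr19:20390890-20390919, 236 bases before. These starts are those of RefSeq. In GENCODE M21 Anxa1 runs from 20373428 to 20390944, so that its window lies inside the gene as annotated there. The differences of these 4 genes, -0.60 for Cyr61, -0.16 for Yap1, -0.63 for Wwtr1 and 0.69 for Anxa1 on the log2 scale, did not share a direction. The TCF/LEF motif CTTTGAT, through which Wnt signals reach DNA, occurred in 1 of the 5, Wwtr1, and in 3.21% of all promoters, while the AP-1 motif TGANTCA (6.75% of all) and the interferon-gamma activated site TTCNNNGAA (7.02% of all), each searched on both strands, occurred in 0 of the 5. The Wwtr1 match lay at chr3:57576063-57576093, upstream of its TEAD match and with no overlap, and is shown with the same 12 bases on each side.
Wwtr1: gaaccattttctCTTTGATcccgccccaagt
A match of letters is a description of sequence and not a measured binding site.

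The rest of the Hippo pathway held few genes past the threshold, and against the 10.9% of all genes that passed these counts are no result about the lists. Of 21 kinases and upstream regulators tested by limma, 0 rose and 1 fell (0 and 4 at an unadjusted p under 0.05), with a median log2 difference of -0.13. The log2 differences of the core kinases were 0.02 for Lats2 (95% interval -0.28 to 0.31), -0.05 for Stk4, also named Mst1 (-0.23 to 0.13), -0.14 for Lats1 (-0.28 to -0.01) and -0.27 for Stk3, also named Mst2 (-0.53 to -0.0046). None of the 4 passed the threshold, with limma adjusted p of 0.176 for Lats1 and 0.187 for Stk3. Amot, which encodes angiomotin, a junction protein that binds YAP, was the one that fell, from 24.7 ± 1.46 to 15.3 ± 3.24 FPKM (SD, n = 5 each), with every Villin-Wls cKO tumor below every control (log2 difference -0.68, limma adjusted p = 0.0091). It passed in 22 of 22 alternative fits. Of 6 TEAD and VGLL factors tested, 0 rose and 1 fell (0 and 2 at an unadjusted p under 0.05): Vgll4, which competes with YAP for TEAD, was lower at 56.4 ± 6.81 FPKM against 78.1 ± 9.91 FPKM in control (SD, n = 5 each; log2 difference -0.46, limma adjusted p = 0.0214), and missed the threshold without tumors 2 and 3 (limma adjusted p = 0.0761). Tead2, the most abundant TEAD factor, was at 74.1 ± 14.9 FPKM in control and 57.9 ± 11.2 FPKM in Villin-Wls cKO tumors (SD, n = 5 each; limma adjusted p = 0.251).

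Of 19 targets other than Ctgf and Cyr61 tested, 0 rose and 2 fell (1 and 3 at an unadjusted p under 0.05), with a median log2 difference of -0.01 that became 0.09 with a common FPKM sum for all tumors, a scaling under which 1 rose and 1 fell, and -0.34 without tumors 2 and 3, where 0 rose and 1 of 18 fell. A share of 2 in 19 was near the 10.9% of all genes. The 2 that fell were Rbms3, an RNA-binding protein, from 11.1 ± 2.08 to 4.90 ± 0.974 FPKM (log2 difference -1.03, limma adjusted p = 0.00226), and Arhgef17, a guanine nucleotide exchange factor, from 6.65 ± 1.04 to 4.13 ± 1.08 FPKM (SD, n = 5 each; log2 difference -0.59, limma adjusted p = 0.0395). Rbms3 passed in 22 and Arhgef17 in 12 of 22 alternative fits, and without tumors 2 and 3 Arhgef17 was at -0.63 and missed the threshold (limma adjusted p = 0.101). F3 (tissue factor), the target with the highest control mean on this list, was at 80.8 ± 19.6 FPKM in control and 99.1 ± 45.9 FPKM in Villin-Wls cKO tumors (SD, n = 5 each). Ccdc80, an extracellular matrix protein, was at 13.3 ± 4.34 and 7.71 ± 2.54 FPKM (SD, n = 5 each), a log2 difference of -0.73 that did not pass (limma adjusted p = 0.112). Of the 5 CCN genes tested, Ctgf and Cyr61 included, 0 passed limma (0 at an unadjusted p under 0.05). Among 9 crypt base stem cell genes, which fetal-like repair replaces for a time, 0 rose and 2 fell. These were Axin2 (158 ± 14.9 to 96.5 ± 10.9 FPKM) and Znrf3 (18.2 ± 2.81 to 10.7 ± 1.16 FPKM), both feedback inhibitors that Wnt induces. At an unadjusted limma p under 0.05, 1 was higher, Ephb2 (limma adjusted p = 0.119), and 3 were lower, Rnf43 among them (limma adjusted p = 0.0857). Lgr5, the receptor that marks these stem cells, was at 16.8 ± 6.88 and 27.3 ± 9.78 FPKM (SD, n = 5 each; limma adjusted p = 0.239).

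**Figure D4:**
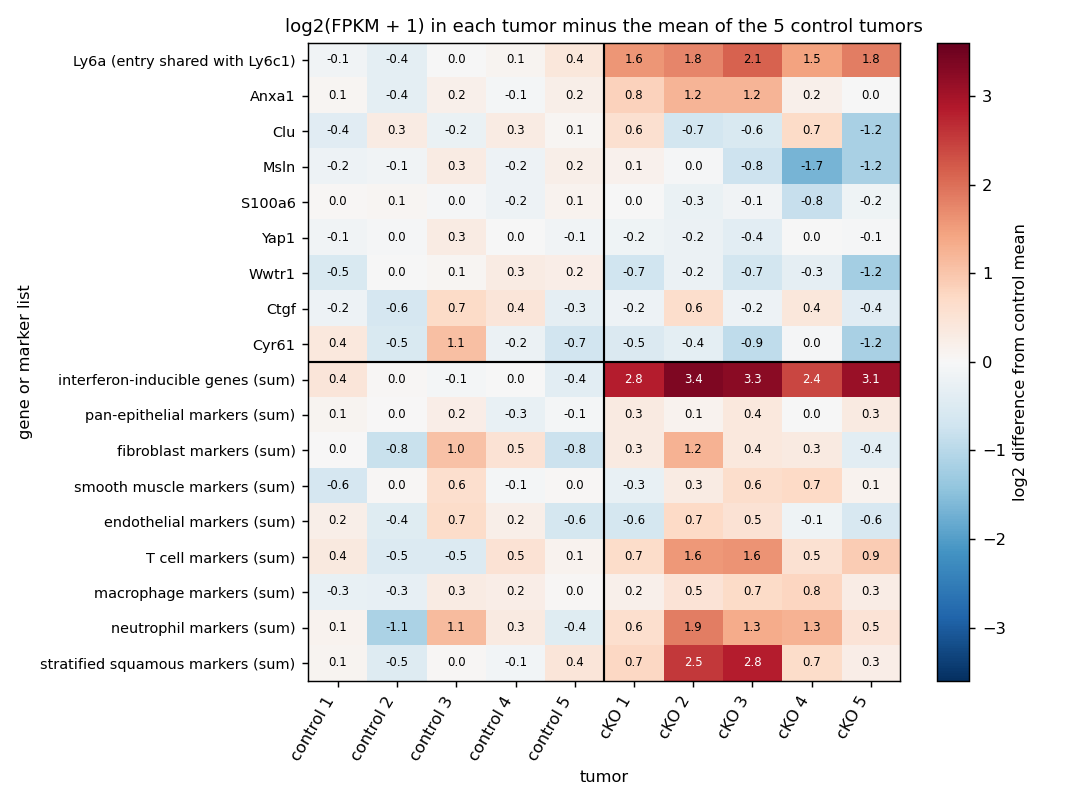
Log2(FPKM + 1) in each tumor (columns) minus the mean of the 5 control tumors, for the 9 genes (upper rows) and for the summed FPKM of interferon-inducible genes and cell type markers (lower rows), with red for higher and blue for lower. The Ly6a entry and the interferon sum are red in all 5 Villin-Wls cKO tumors, while Clu is red in tumors 1 and 4 and blue in tumors 2, 3 and 5, and the squamous sum is deepest in tumors 2 and 3.

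The 9 genes did not move as one from tumor to tumor. After the mean of each group was subtracted, the highest Pearson correlation of log2(FPKM + 1) between any pair was 0.747 for Ctgf and Cyr61 (Spearman 0.794, n = 10 tumors), followed by 0.697 for Anxa1 and Msln (Spearman 0.733) and 0.684 for Msln and S100a6 (Spearman 0.37). The most negative was -0.556 for S100a6 and Ctgf (Spearman -0.673). The Ly6a entry reached 0.505 with Anxa1 and -0.456 with Clu. These are descriptions over 10 tumors that share scaling and tissue makeup, and no test was made of them.

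Among 11792 genes with a mean of at least 5 FPKM, those most like each member were named by the same measure. For the Ly6a entry they were Gm10145 (Pearson 0.962, Spearman 0.964) and Hgsnat (0.908 and 0.927), for Anxa1 they were Prpf19 (0.967 and 0.964) and Fzd10 (0.957 and 0.939), and for Clu Prpf4b (0.953 and 0.976) and Gm16348, whose values Pcm1 shares (0.947 and 0.867). Msln was nearest to Gm5578 (0.918 and 0.939) and Zfand2a (0.916 and 0.782), and S100a6 to Lrrfip2 (0.934 and 0.855) and Apcdd1 (0.931 and 0.818). Yap1 was nearest to Sec23ip (0.959 and 0.915) and Cdc25a (0.932 and 0.867), and Wwtr1 to Kctd12, whose values AC102815.1 shares (0.971 and 0.915). Ctgf was nearest to Smoc1 (0.977 and 0.952) and Ipo9 (0.96 and 0.855), and Cyr61 to Aqr (0.962 and 0.939) and Ereg (0.954 and 0.976). No member was among the 2 genes nearest to another, which says little about the members when only 2 of 11792 genes were kept. The correlations in this paragraph are the highest of many over few tumors, and no test was made of them.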

How the data were processed

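Messenger RNA of 10 macrodissected colon tumors, 5 control and 5 Villin-Wls cKO, was sequenced from stranded libraries. Per the labels and the study's methods, reads were checked with FastQC, mapped to GRCm38.p5 with TopHat2 2.1.1 and quantified with Cufflinks 2.2.1 and Cuffdiff, and the authors deposited 1 FPKM value per gene name and tumor. The annotation release and the use of strand in counting are not given in the sources used here. All 10 columns were assigned to tumors by their labels and 0 were left over. There were 1012 sets of names with the same 10 values, 2419 of the 16875 names in all, whose reads are not assigned to a single gene. The entry of Eef1a1 alone took 11.1% to 20.5% of the FPKM sum of a tumor, so the scaling was varied. Only 0.04% of values were whole (tolerance 1e-06), so no counting error could be given, and precision rests on the spread between tumors. Anxa1, Yap1, Wwtr1 and Ctgf overlap a gene annotated on the other strand, whose reads cannot be told apart if strand was not used.

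Groups were compared on log2(FPKM + 1) by limma 3.58.1 (R 4.3.3), using a pseudocount of 1, genes averaging at least 0.5 FPKM, an eBayes variance trend, no covariate and two-sided p-values adjusted by Benjamini-Hochberg over 16757 genes, with a threshold of 0.05. All 9 genes passed the filter on low values. Because of the pseudocount, fold changes understate the change of low genes. In a simulation with the means and spreads of all 16757 genes, each gene was drawn independently. The test recovered 192 of 200 genes changed by 2 on the log2 scale, all with a mean above 2 on that scale. It called 9 unchanged genes, and 0 when none changed. Smaller changes were not simulated, so the recovery of such changes is not known. Lists were described by counts and medians, and 1 gene of the fetal-like list is not reported here and not counted in it. Positions are from GENCODE M21 and promoter sequences from RefSeq. Other steps ran in Python 3.11.15 with pandas 2.3.3, numpy 2.4.6 and, for plots, matplotlib 3.10.9.

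The 9 genes and the gene lists were chosen with earlier results of these data known. The text names all 9, members of the lists with the count of their list, names that share all values with a member, and the 2 genes most correlated with each. Alternatives were a pseudocount of 0.1, 3 other scalings, no filter and a filter of 5 FPKM, eBayes without trend or robust, tumor quality weights, a replicate block, identical names counted once, each tumor left out in turn and Villin-Wls cKO tumors 2 and 3 left out together, and, with no test, log2 ratios of the group mean FPKM or the group median FPKM.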

Additional observations from a re-analysis of the deposited data

Results flagged for a closer look

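Among the 18 groups of 5 values (9 genes in 2 groups), 1 held a value far from the others: Yap1 in control tumor 3, at 75.8 FPKM, was the highest of the controls, and its gap to the next value was 0.76 of the range of the group, above the critical value of 0.71. Chance flags about 1 in 20 groups. Without that tumor the log2 difference of Yap1 was -0.089 (limma adjusted p = 0.547), against -0.16 (limma adjusted p = 0.34) with it.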

How the results depend on the processing

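The Ly6a entry passed in 22 of 22 alternative fits, with log2 differences of 1.48 to 1.86 and limma adjusted p of 4.33e-05 to 0.00195. The number of members past the threshold was 1, and 1 to 2 with 1 tumor left out: 2 without control tumor 1 (Wwtr1), 2 without Villin-Wls cKO tumor 5 (Anxa1), and also 2 under quantile normalization (S100a6). Without Villin-Wls cKO tumors 2 and 3, 1101 of all genes passed against 1822, and 16 of the list genes against 32, with fewer tumors in the fit. With 1 tumor left out, 1229 to 1986 of all genes and 22 to 35 of the list genes passed. Clu turned to 0.027 without tumors 2 and 3, and with 1 tumor left out it lay between -0.45 and 0.012, above 0 without Villin-Wls cKO tumor 5 only. Ctgf turned to -0.056 without tumors 2 and 3, and with 1 tumor left out it lay between -0.093 and 0.23, below 0 without control tumor 2 (-0.093) or 5 (-0.019) and without Villin-Wls cKO tumor 2 (-0.084) or 4 (-0.030). Msln was -0.45 without Villin-Wls cKO tumor 4 and Yap1 -0.078 without tumors 2 and 3. Neither Clu nor Ctgf passed in any fit, nor did Msln, Yap1 or Cyr61. Of all genes called, 56.3% were higher in Villin-Wls cKO tumors, 77.0% with each tumor rescaled to an FPKM sum of 1000000 (1373 higher and 410 lower) and 44.3% under quantile normalization (893 higher and 1125 lower). Replicate numbers are shared between the groups, but nothing says that they pair the tumors, and the correlations of same-numbered tumors after removing group means were 0.064, -0.087, 0.063, 0.1 and 0.162. With a replicate block 1627 of all genes, 29 list genes and 1 member passed. Depth is unknown, so no limit of detection can be given for low genes.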
